A study of Homo sapiens with 12 samples.

Results

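The genes described here are 35 genes of the lysosome and of autophagy, picked by symbol out of the 23497 genes in the deposited count table. The list follows the known function of the genes, and it was chosen with earlier results of these data known. It holds 6 lysosomal membrane proteins, 7 proteases, 7 glycosidases, 4 genes of lipid handling, 4 subunits or accessory proteins of the proton pump, 2 transcription factors and 5 autophagy genes. All 35 were found in the table, and all 35 were among the 17114 genes with enough counts to be tested. RNA was measured in WM1366, an NRAS-mutant human melanoma cell line. The sensitive parent line was cultured with DMSO, the solvent of the drugs. Of the 3 daughter lines, EB-resistant was kept in encorafenib and binimetinib, VC-resistant in vemurafenib and cobimetinib, and DT-resistant in dabrafenib and trametinib, each pair being a BRAF inhibitor with a MEK inhibitor. Each of the 4 groups has 3 libraries from 3 independent experiments, numbered 2, 5 and 6 in the labels, with RNA taken 72 hours after seeding. Each drug pair is represented by 1 line, so the drug pair, the resistance, the presence of drug at lysis and the culture history of a line cannot be told apart.

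Lysosomes are acidic, membrane-bound compartments in which hydrolases break down proteins, sugars and lipids. The vacuolar proton pump (V-ATPase) keeps them acidic, and heavily glycosylated membrane proteins line them. In autophagy, cytoplasm is enclosed in a double membrane and delivered to the lysosome. Many of these genes share a promoter element, an E-box read by TFEB, TFE3 and their relative MITF, which is also the lineage factor of melanocytes. When nutrients are plentiful, the kinase complex mTORC1 at the lysosome keeps TFEB and TFE3 out of the nucleus, and ERK, the kinase below MEK, is a further known kinase of TFEB. Transcript levels do not report where these factors are in the cell, nor how active they are.

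The E-box sequences of 3 members are shown, which hold the same element and had different readouts. They were picked by sequence and position. Of the genes with the longer core named below, these 3 had no E-box lying wholly before the start and within an annotated exon. RefSeq promoter windows, of 250 bases before and 50 after a transcription start on GRCh38.p14, were given for 24 of the 35 genes. The hexamer CACGTG, which reads the same on both strands, occurred in 8 of these 24 genes (33.3%), against 8.77% of 27305 genes with such a window. A gene was counted if any of its windows held the letters. The 24 genes had 38 windows and the 27305 genes had 35116, and 7.26% of the 35116 windows held the hexamer. The 8 genes were LAMP1, CD63, MCOLN1, CTSA, CTSD, GAA, NEU1 and ATP6V0D1. The longer core TCACGTGA, which contains the hexamer and is also its own reverse complement, occurred in 5 (20.8%), namely LAMP1, MCOLN1, CTSA, GAA and ATP6V0D1, against 1.18% of all genes. The stretches below run 5′ to 3′ on the plus strand, lie before the first annotated exon, and carry CACGTG in capitals. LAMP1 is at chr13:113297027-113297236, GAA at chr17:80101485-80101555 and MCOLN1 at chr19:7522563-7522623.
LAMP1: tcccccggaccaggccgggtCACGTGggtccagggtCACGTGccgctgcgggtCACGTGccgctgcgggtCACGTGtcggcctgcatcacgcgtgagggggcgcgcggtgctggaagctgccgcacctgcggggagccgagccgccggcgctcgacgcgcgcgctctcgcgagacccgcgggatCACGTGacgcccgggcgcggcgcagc
GAA: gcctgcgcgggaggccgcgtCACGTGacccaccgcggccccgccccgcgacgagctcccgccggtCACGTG
MCOLN1: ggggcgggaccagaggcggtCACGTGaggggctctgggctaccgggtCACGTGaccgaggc
The LAMP1 stretch holds 5 copies of the hexamer, and those of GAA and MCOLN1 hold 2 each. Another LAMP1 copy, within the longer core, begins 1 base before the start, runs across it and is not shown. Among the 5 genes with the longer core, LAMP1 rose in all 3 resistant lines and GAA rose in VC-resistant and DT-resistant. ATP6V0D1 fell in VC-resistant and DT-resistant, MCOLN1 fell in DT-resistant cells, and CTSA passed the test in no comparison. A match to these letters is a description of the sequence and was not tested as a binding site.

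Most of the lysosome genes that changed were higher in the resistant lines. A gene is said here to rise or fall when its Benjamini-Hochberg adjusted p, over all 17114 genes in edgeR's quasi-likelihood test, was under 0.05. Against sensitive, 15 of the 35 genes rose and 6 fell in EB-resistant cells, where 28.5% of all genes tested rose and 27.6% fell. In VC-resistant, 24 rose and 4 fell, with 27.6% and 27.4% of all genes. In DT-resistant, 25 rose and 5 fell, with 29.8% and 29.3% of all genes. As shares of the 35, the genes that rose made up 42.9%, 68.6% and 71.4%, and those that fell 17.1%, 11.4% and 14.3%. The median log2 fold change of the 35 was 0.18 in EB-resistant cells, 0.51 in VC-resistant cells and 0.62 in DT-resistant cells, and that of all genes tested was within 0.01 of 0 in each. The groups did not overlap in 25, 28 and 29 of the 35 genes (71.4%, 80% and 82.9%), against 64.7%, 61.7% and 63.7% of all genes tested. Rises of at least 1.5-fold that passed the test numbered 9, 15 and 19 (25.7%, 42.9% and 54.3%), against 18.7%, 16.6% and 18.5% of all genes.

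**Figure D1:**
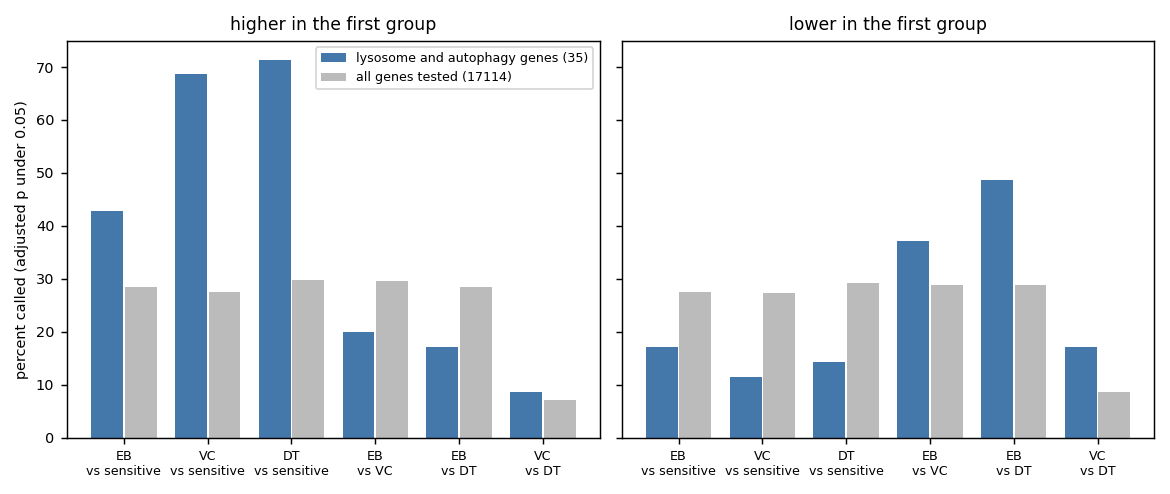
Percent of the 35 lysosome and autophagy genes (blue) and of all 17114 genes tested (grey) that passed an adjusted p of 0.05 as higher (left) or lower (right) in the first-named group, for each of the 6 comparisons. The blue bars for higher against sensitive reach 42.9%, 68.6% and 71.4%, beside grey bars of 28.5%, 27.6% and 29.8%.

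Rising in all 3 lines were 13 of the 35 genes (37.1%, against 12.5% of all genes tested): LAMP1, LAMP2, CTSB, CTSD, TPP1, PSAP, ASAH1, LIPA, ATP6V1A, ATP6AP1, TFEB, SQSTM1 and UVRAG. Falling in all 3 was 1 gene, CD63 (2.86%, against 12.1%). The 3 comparisons use the same sensitive libraries, so these overlaps are a description. Among the sensitive libraries, replicate 2 held the highest level for 26 of the 35 genes (74.3%, against 40.8% of all genes tested). Replicate 2 was also the highest for 27 genes in VC-resistant cells (77.1%, against 38.6% of all genes tested) and 29 in DT-resistant cells (82.9%, against 39.8%). In EB-resistant cells, replicate 5 was the highest for 24 (68.6%, against 33.7%). This spread is contained in the standard errors below, and the calls against sensitive that are lost without 1 library are named with their gene.

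**Figure D2:**
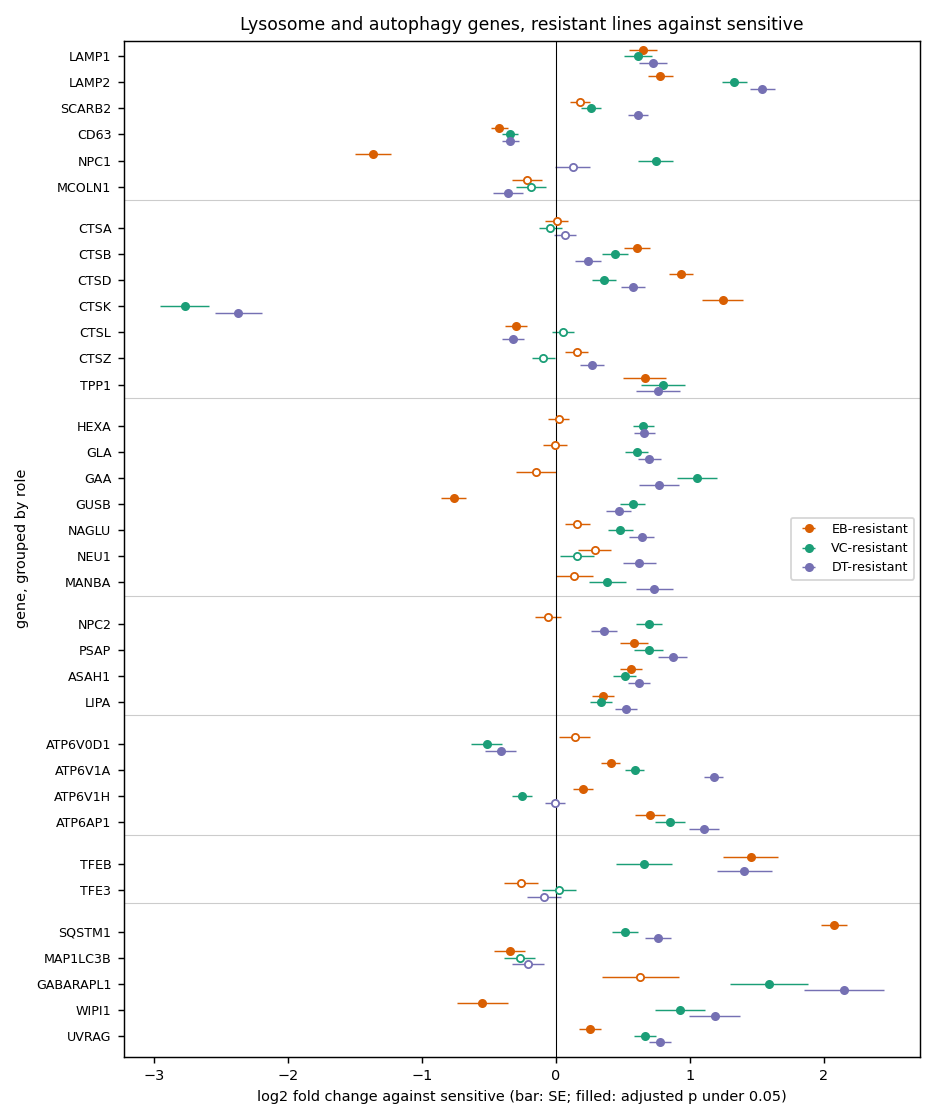
Log2 fold change against sensitive of the 35 genes in EB-resistant (orange), VC-resistant (green) and DT-resistant (purple), grouped by role from membrane proteins at the top to autophagy genes at the bottom. Bars are standard errors and filled points passed an adjusted p of 0.05. The 7 glycosidases, in the third block, lie at or below 0.29 in EB-resistant cells and reach 1.05 in VC-resistant cells, and CTSK lies at 1.25 in EB-resistant cells and at -2.77 and -2.37 in the other lines.

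Together the 35 genes took a larger share of all counts in each resistant line. The share was 0.420% ± 0.0401 (SD, n = 3) in sensitive, 0.669% ± 0.0148 in EB-resistant cells, 0.567% ± 0.0200 in VC-resistant cells and 0.608% ± 0.0428 in DT-resistant cells. The highest sensitive library (0.467%) was below the lowest resistant one (0.554%, in VC-resistant cells). In an exact two-sided permutation test over libraries, each resistant line against sensitive gave p = 0.1, adjusted p = 0.15 over 6 pairs, and 0.1 is the smallest p that 3 against 3 libraries allow. SQSTM1 alone carried much of the EB-resistant share. Without it, a check added after the values were seen, the shares were 0.377% in sensitive, 0.478% in EB-resistant cells, 0.507% in VC-resistant cells and 0.537% in DT-resistant cells, so that the EB-resistant mean moved from the highest to the lowest of the resistant lines.

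**Figure D3:**
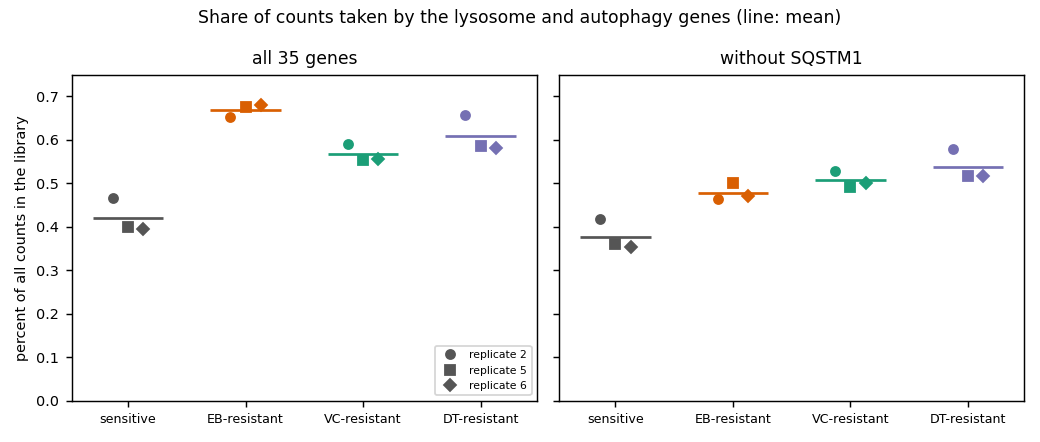
Percent of all counts in each library taken by the 35 genes (left) and by the 34 others when SQSTM1 is left out (right), with replicates 2, 5 and 6 as separate symbols and a line at each group mean. EB-resistant has the highest mean on the left (0.669%), and DT-resistant on the right (0.537%).

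The lysosomal membrane proteins were led by LAMP2, an abundant glycoprotein lining the organelle and, in one of its isoforms, a receptor for chaperone-mediated autophagy. LAMP2 (chrX:120426148-120469365, minus strand, hg38) stood, for replicates 2, 5 and 6 in this and all later lists, at 281, 228 and 230.0 CPM in the sensitive libraries, 408, 435 and 427 in EB-resistant cells, 672, 576 and 615 in VC-resistant cells and 797, 683 and 675 in DT-resistant cells. Every resistant library was above every sensitive one, and the 4 groups did not overlap one another. In the direct contrasts, LAMP2 was lower in EB-resistant cells than in both other lines, while VC-resistant against DT-resistant did not pass. LAMP2 was 1.72-fold higher in EB-resistant cells (log2 0.78 ± 0.092, adjusted p = 3.76e-06), 2.52-fold in VC-resistant cells (log2 1.33 ± 0.093, adjusted p = 3.05e-08) and 2.91-fold in DT-resistant cells (log2 1.54 ± 0.094, adjusted p = 5.3e-09). LAMP1, the companion glycoprotein whose promoter is shown above, was at 279, 249 and 228 CPM in the sensitive libraries, 375, 426 and 388 in EB-resistant cells, 423, 368 and 369 in VC-resistant cells and 489, 396 and 367 in DT-resistant cells. Its rise was similar in size in the 3 lines, at log2 0.65 ± 0.10, 0.62 ± 0.10 and 0.73 ± 0.11, all with adjusted p of 0.00016 or less, and no resistant library overlapped a sensitive one. SCARB2, the receptor that carries glucocerebrosidase to the lysosome, rose in DT-resistant cells (log2 0.61 ± 0.075, adjusted p = 6.12e-06) and by less in VC-resistant cells (log2 0.27 ± 0.075, adjusted p = 0.00735). In EB-resistant SCARB2 was at log2 0.18 ± 0.075, adjusted p = 0.0532, and it passed the test there without sensitive replicate 2 (log2 0.22, adjusted p = 0.0316), EB-resistant replicate 6 (adjusted p = 0.0253) or DT-resistant replicate 2 (adjusted p = 0.0436).

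CD63, a tetraspanin of lysosomes, melanosomes and exosomes, went the other way. Its levels were 291, 294 and 284 CPM in the sensitive libraries, 207, 223 and 219.6 in EB-resistant cells, 237, 216 and 232 in VC-resistant cells and 227, 223 and 237 in DT-resistant cells. All 9 resistant libraries were below the 3 sensitive ones, with log2 -0.42 ± 0.062, adjusted p = 3.16e-05 in EB-resistant cells, -0.34 ± 0.061, adjusted p = 0.000254 in VC-resistant cells and -0.34 ± 0.061, adjusted p = 0.000233 in DT-resistant cells. MCOLN1, a calcium channel of the lysosomal membrane, was at 15.9, 13.4 and 14.3 CPM in the sensitive libraries, 12.0, 13.3 and 12.2 in EB-resistant cells, 12.3, 13.5 and 12.5 in VC-resistant cells and 10.3, 13.001 and 10.8 in DT-resistant cells. EB-resistant and DT-resistant lay below sensitive, and VC-resistant overlapped it. Only its fall in DT-resistant cells passed the test (log2 -0.35 ± 0.11, adjusted p = 0.0136), and it did not when sensitive replicate 2 was left out (adjusted p = 0.0567), nor without DT-resistant replicate 2 (adjusted p = 0.0608).

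NPC1, the transporter that moves cholesterol out of the lysosome together with the soluble NPC2, split the resistant lines. NPC1 (chr18:23506184-23586506, minus strand) was at 276, 207 and 165 CPM in the sensitive libraries, 84.2, 84.7 and 82.5 in EB-resistant cells, 377, 344 and 364 in VC-resistant cells and 234, 249 and 224 in DT-resistant cells. EB-resistant was below all other libraries, VC-resistant above all others, and DT-resistant within the wide range of the sensitive libraries. It was 2.58-fold lower in EB-resistant cells (log2 -1.37 ± 0.13, adjusted p = 1.41e-06) and 1.68-fold higher in VC-resistant cells (log2 0.74 ± 0.13, adjusted p = 0.000334). Against DT-resistant, NPC1 was lower in EB-resistant cells (log2 -1.49 ± 0.13, adjusted p = 7.8e-07) and higher in VC-resistant cells (log2 0.62 ± 0.13, adjusted p = 0.00584). In DT-resistant against sensitive it did not pass (log2 0.13 ± 0.13, adjusted p = 0.428), but did without sensitive replicate 2, the highest of its group (log2 0.34, adjusted p = 0.005).

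Among the proteases, the aspartic protease CTSD and the cysteine protease CTSB rose in all 3 lines. CTSD was at 92.7, 86.5 and 78.2 CPM in the sensitive libraries, 154, 179 and 159.7 in EB-resistant cells, 117, 107 and 107 in VC-resistant cells and 144, 123 and 117 in DT-resistant cells. The groups did not overlap, except VC-resistant with DT-resistant, and the rises were log2 0.94 ± 0.091, adjusted p = 4.91e-07 in EB-resistant cells, 0.36 ± 0.091, adjusted p = 0.0034 in VC-resistant cells and 0.57 ± 0.091, adjusted p = 6.79e-05 in DT-resistant cells. CTSD was also higher in EB-resistant cells than in VC-resistant cells (log2 0.57 ± 0.091, adjusted p = 6.47e-05) and DT-resistant (log2 0.36 ± 0.090, adjusted p = 0.0031). CTSB was at 473, 388 and 355 CPM in the sensitive libraries, 565, 676 and 608 in EB-resistant cells, 557, 534 and 560.1 in VC-resistant cells and 505, 480.2 and 449 in DT-resistant cells. It rose by log2 0.61 ± 0.10 in EB-resistant cells (adjusted p = 6.68e-05) and 0.44 ± 0.10 in VC-resistant cells (adjusted p = 0.00115), without overlap with sensitive. Between the lines, CTSB was higher in EB-resistant cells than in DT-resistant cells (log2 0.37 ± 0.10, adjusted p = 0.00417), and EB-resistant against VC-resistant did not pass (log2 0.16 ± 0.10, adjusted p = 0.157). The smaller rise in DT-resistant cells (log2 0.24 ± 0.10, adjusted p = 0.0425), where the groups overlapped, was lost without sensitive replicate 5 or 6 or DT-resistant replicate 2 or 5, with adjusted p from 0.0842 to 0.182, and in the fit of these 2 groups alone (adjusted p = 0.0735). TPP1, a peptidase that removes tripeptides and whose loss causes a neuronal storage disease, was at 123, 98.4 and 81.6 CPM in the sensitive libraries, 162, 177 and 141 in EB-resistant cells, 196, 171 and 160.2 in VC-resistant cells and 209, 161 and 144 in DT-resistant cells. All resistant libraries were above the sensitive ones, although the sensitive libraries themselves were widely spread. Its log2 fold changes were 0.66 ± 0.16, 0.80 ± 0.16 and 0.76 ± 0.16, with adjusted p from 0.00133 to 0.0042.

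The cysteine protease CTSK, known for degrading collagen and for its role in bone-resorbing cells, had the largest differences of all members. CTSK (chr1:150794880-150809577, minus strand) was at 7.79, 8.32 and 8.05 CPM in the sensitive libraries, 19.5, 20.5 and 17.2 in EB-resistant cells, 1.102, 0.968 and 1.44 in VC-resistant cells and 2.00, 1.28 and 1.382 in DT-resistant cells. EB-resistant lay above sensitive and the other resistant lines below it, with no overlap. It was 2.37-fold higher in EB-resistant cells (log2 1.25 ± 0.15, adjusted p = 6.01e-06), 6.82-fold lower in VC-resistant cells (log2 -2.77 ± 0.18, adjusted p = 1.5e-08) and 5.17-fold lower in DT-resistant cells (log2 -2.37 ± 0.18, adjusted p = 3.89e-08). The direct contrasts were log2 4.02 ± 0.18, adjusted p = 3.5e-10 for EB-resistant against VC-resistant and 3.61 ± 0.18, adjusted p = 7.18e-10 against DT-resistant. Genes known as markers of fibroblasts, another cell type known to express CTSK, were also higher in EB-resistant cells in these cultured melanoma lines. Their sum was above sensitive in VC-resistant and DT-resistant too, where CTSK fell. Their summed level over 9 genes was 110.3 to 149 CPM in sensitive, 528 to 591 in EB-resistant cells, 281 to 314 in VC-resistant cells and 362 to 468 in DT-resistant cells. THY1 made up most of it, with 127 CPM in sensitive and 409.5 in EB-resistant cells. LUM averaged 0.916 CPM in sensitive, 49.8 in EB-resistant cells, 14.7 in VC-resistant cells and 145 in DT-resistant cells, and PDGFRB 0.784, 74.5, 2.60 and 2.49 in the same order. COL1A2, DCN and PDGFRA averaged at most 0.146 CPM in any group. The part of these markers in the CTSK result was not tested.

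The other proteases changed little. CTSL, a cysteine protease of broad specificity, was at 70.5, 63.8 and 64.0 CPM in the sensitive libraries, 50.3, 54.3 and 56.9 in EB-resistant cells, 65.0, 65.0 and 75.9 in VC-resistant cells and 54.5, 51.0 and 53.6 in DT-resistant cells. It fell in EB-resistant cells (log2 -0.30 ± 0.081, adjusted p = 0.00552) and DT-resistant (log2 -0.32 ± 0.081, adjusted p = 0.00333), while VC-resistant overlapped sensitive (log2 0.056 ± 0.080, adjusted p = 0.58) and was above DT-resistant (log2 0.37 ± 0.081, adjusted p = 0.00508). CTSZ, a carboxypeptidase, rose in DT-resistant cells alone (log2 0.27 ± 0.087, adjusted p = 0.0139), a call lost without DT-resistant replicate 2 (adjusted p = 0.0553). CTSA, also called protective protein because it stabilises galactosidase and NEU1, averaged 170.2 ± 3.88 CPM (SD, n = 3) in sensitive and passed the test in none of the 6 comparisons. Its log2 fold changes against sensitive were 0.0061 ± 0.085, -0.039 ± 0.085 and 0.070 ± 0.085 in the EB-, VC- and DT-resistant lines.

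The glycosidases, which remove sugars from glycolipids, glycogen and glycosaminoglycans, separated EB-resistant from the other 2 resistant lines. Against sensitive, 0 of 7 rose and 1 fell in EB-resistant cells, 6 rose in VC-resistant cells and 7 rose in DT-resistant cells, with medians of log2 0.021, 0.58 and 0.66. In the direct contrasts, 5 of 7 were lower in EB-resistant cells than in VC-resistant cells and 7 of 7 lower than in DT-resistant cells, with median log2 differences of -0.61 and -0.64. Across all genes tested, 28.8% were lower in EB-resistant cells than in VC-resistant cells and 28.8% lower than in DT-resistant cells. These contrasts share the EB-resistant libraries.

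GAA, the acid alpha-glucosidase that degrades glycogen, was at 18.7, 15.0 and 13.9 CPM in the sensitive libraries, 14.8, 15.0 and 13.2 in EB-resistant cells, 33.7, 32.2 and 32.7 in VC-resistant cells and 34.7, 24.4 and 22.0 in DT-resistant cells. VC-resistant and DT-resistant were above all sensitive and EB-resistant libraries, and the latter overlapped each other. GAA rose 2.07-fold in VC-resistant cells (log2 1.05 ± 0.15, adjusted p = 3.39e-05) and 1.71-fold in DT-resistant cells (log2 0.77 ± 0.15, adjusted p = 0.000429), and EB-resistant was lower than VC-resistant (log2 -1.20 ± 0.15, adjusted p = 7.97e-06) and DT-resistant (log2 -0.92 ± 0.15, adjusted p = 0.000103). GUSB (chr7:65960684-65982215, minus strand), the beta-glucuronidase, was at 30.5, 27.9 and 29.8 CPM in the sensitive libraries, 17.8, 17.5 and 16.7 in EB-resistant cells, 46.3, 42.4 and 42.9 in VC-resistant cells and 46.7, 40.0 and 35.7 in DT-resistant cells. All EB-resistant libraries were below, and all VC-resistant and DT-resistant libraries above, the sensitive ones. The log2 fold changes against sensitive were -0.76 ± 0.10, adjusted p = 6.8e-06 in EB-resistant cells, 0.58 ± 0.094, adjusted p = 0.000109 in VC-resistant cells and 0.47 ± 0.094, adjusted p = 0.000528 in DT-resistant cells. GUSB is often used as a reference gene for normalising RNA measurements, and it has partial copies in the genome. The 10 GUSBP genes of the table held between 31 and 2050 counts over all 12 libraries, and reads that fit a copy and GUSB alike are uncertain.

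HEXA, the alpha subunit of the hexosaminidase that degrades gangliosides, and GLA, alpha-galactosidase, had nearly the same pattern as GAA. HEXA rose by log2 0.65 ± 0.079 in VC-resistant cells and 0.66 ± 0.079 in DT-resistant cells, with adjusted p of 7.01e-06 and 4.83e-06, and was at 0.021 ± 0.079 in EB-resistant cells. GLA was at log2 0.60 ± 0.088, 0.70 ± 0.088 and -0.0061 ± 0.088 in the same order, with adjusted p of 3.79e-05, 7.46e-06 and 0.96. NAGLU, which acts on heparan sulfate, rose by log2 0.48 ± 0.093 and 0.64 ± 0.092 and was at 0.16 ± 0.093, adjusted p = 0.151 in EB-resistant cells. MANBA, the beta-mannosidase, rose in DT-resistant cells (log2 0.74 ± 0.14, adjusted p = 0.000294). Its rise in VC-resistant cells (log2 0.39 ± 0.14, adjusted p = 0.0265) was lost without VC-resistant replicate 2 (log2 0.24, adjusted p = 0.146) and without sensitive replicate 2 (adjusted p = 0.101) or 5 (adjusted p = 0.0509). NEU1, the lysosomal sialidase, was at 39.3, 36.0 and 38.0 CPM in the sensitive libraries, 39.9, 51.4 and 47.5 in EB-resistant cells, 51.5, 38.4 and 36.8 in VC-resistant cells and 64.4, 54.6 and 55.6 in DT-resistant cells. DT-resistant lay above all other libraries (log2 0.62 ± 0.12, adjusted p = 0.000529 against sensitive), and EB-resistant, at 0.29 ± 0.12, adjusted p = 0.0567, passed the test without its replicate 2 (log2 0.40, adjusted p = 0.0189) or VC-resistant replicate 2 (adjusted p = 0.0169). The lower NEU1 level in EB-resistant cells than in DT-resistant cells (log2 -0.33 ± 0.12, adjusted p = 0.0319) was lost without EB-resistant replicate 2 or 6 or DT-resistant replicate 2, with adjusted p from 0.0657 to 0.163.

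**Figure D4:**
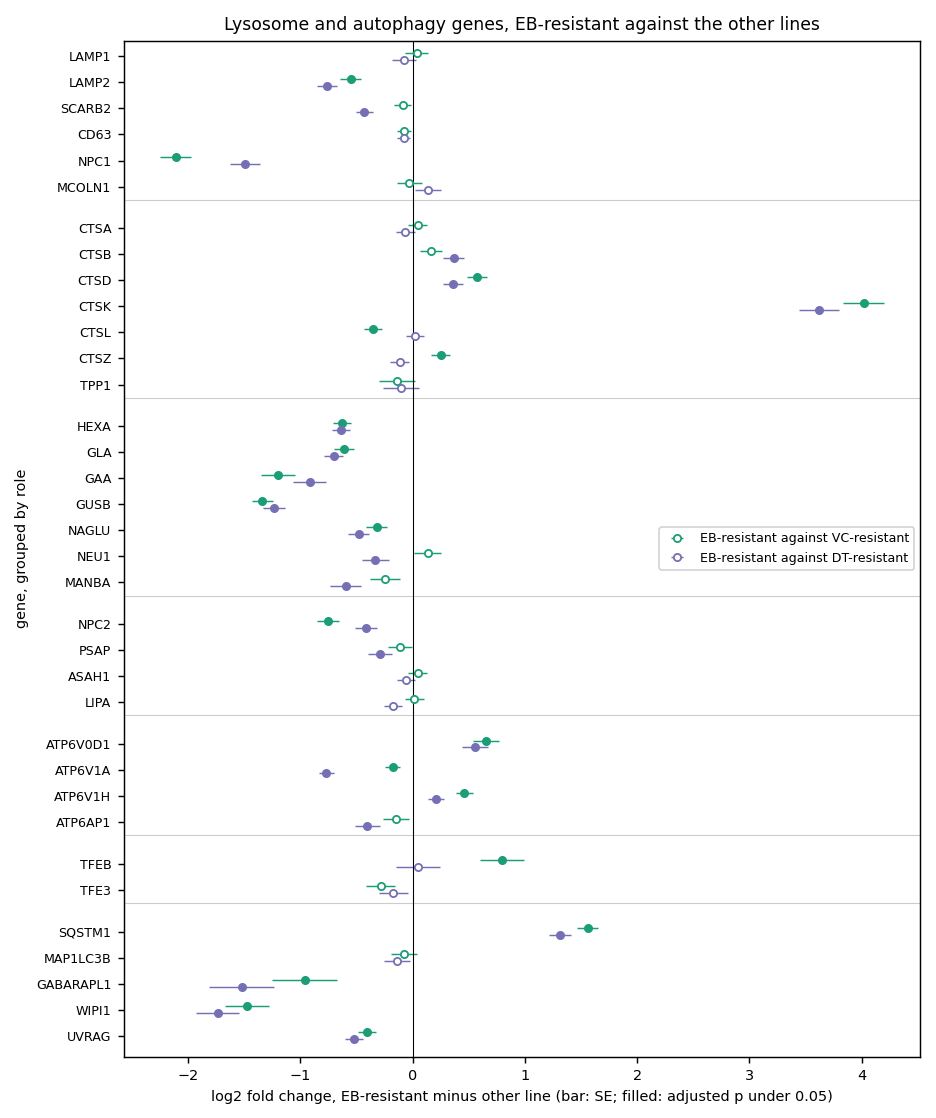
Log2 fold change of the 35 genes in EB-resistant against VC-resistant (green) and against DT-resistant (purple), grouped by role as in the plot against sensitive. Bars are standard errors and filled points passed an adjusted p of 0.05. All 7 glycosidases lie below 0 against DT-resistant, and CTSK (4.02 and 3.61) and SQSTM1 (1.56 and 1.31) lie farthest above 0.

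The genes of lipid handling rose in all lines except for NPC2. PSAP, precursor of the saposins that present lipids to hydrolases, had the highest level per kilobase of all members in sensitive, and was at 518, 403 and 399.8 CPM in the sensitive libraries, 669, 658 and 652 in EB-resistant cells, 789.7, 646 and 702 in VC-resistant cells and 918, 745 and 753 in DT-resistant cells. No resistant library overlapped a sensitive one, and the rises were log2 0.58 ± 0.11, adjusted p = 0.000281 in EB-resistant cells, 0.70 ± 0.11, adjusted p = 7.41e-05 in VC-resistant cells and 0.87 ± 0.11, adjusted p = 7.42e-06 in DT-resistant cells. ASAH1, the acid ceramidase, was at 27.0, 24.4 and 28.1 CPM in the sensitive libraries, 37.7, 39.8 and 39.8 in EB-resistant cells, 35.9, 37.8 and 39.7 in VC-resistant cells and 44.4, 38.7 and 39.2 in DT-resistant cells. Its rises were close in size in the 3 lines, at log2 0.56 ± 0.084, 0.51 ± 0.084 and 0.62 ± 0.084, with adjusted p of 0.000106 or less. LIPA, the acid lipase that frees cholesterol from its esters, rose by log2 0.35 ± 0.083, 0.34 ± 0.083 and 0.52 ± 0.083, with adjusted p of 0.00296 or less. NPC2, the soluble cholesterol carrier that works with NPC1, was at 52.9, 56.5 and 62.3 CPM in the sensitive libraries, 53.9, 56.3 and 54.96 in EB-resistant cells, 103, 86.1 and 89.6 in VC-resistant cells and 84.5, 66.1 and 70.1 in DT-resistant cells. EB-resistant overlapped sensitive (log2 -0.056 ± 0.10, adjusted p = 0.648), while VC-resistant (log2 0.70 ± 0.10, adjusted p = 2.55e-05) and DT-resistant (log2 0.36 ± 0.10, adjusted p = 0.00472) lay above both. Between these, NPC2 was higher in VC-resistant cells than in DT-resistant cells (log2 0.34 ± 0.10, adjusted p = 0.027), a call lost without VC-resistant replicate 2 or 6 or DT-resistant replicate 5 or 6, with adjusted p from 0.0567 to 0.125, and in the fit of these 2 groups alone (adjusted p = 0.0763).

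The V-ATPase members did not move together. ATP6V1A, the catalytic subunit of the part of the pump that splits ATP, was at 98.8, 109 and 117 CPM in the sensitive libraries, 140.4, 145 and 145 in EB-resistant cells, 169, 157 and 161 in VC-resistant cells and 257, 243 and 234 in DT-resistant cells. The groups were ordered without overlap from sensitive through EB-resistant and VC-resistant to DT-resistant, where it was 2.26-fold higher than in sensitive (log2 1.18 ± 0.070, adjusted p = 4.45e-09). The rises in EB-resistant and VC-resistant were log2 0.41 ± 0.070, adjusted p = 0.000125 and 0.59 ± 0.070, adjusted p = 5.53e-06. The small step between these lines (log2 -0.18 ± 0.069, adjusted p = 0.0384) was lost with DESeq2 (adjusted p = 0.0752) and when any of 6 libraries was left out. ATP6AP1, an accessory protein of pump assembly, was at 68.3, 65.9 and 67.6 CPM in the sensitive libraries, 104, 119 and 106 in EB-resistant cells, 142, 114 and 109 in VC-resistant cells and 172, 133 and 129.9 in DT-resistant cells. It rose in every line, by log2 0.71 ± 0.11, adjusted p = 8.52e-05 in EB-resistant cells, 0.85 ± 0.11, adjusted p = 1.93e-05 in VC-resistant cells and 1.11 ± 0.11, adjusted p = 1.29e-06 in DT-resistant cells, with no overlap with sensitive.

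ATP6V0D1, a subunit of the membrane part of the pump, was at 46.9, 59.7 and 61.6 CPM in the sensitive libraries, 57.1, 63.8 and 64.6 in EB-resistant cells, 35.6, 42.8 and 39.3 in VC-resistant cells and 35.7, 46.2 and 44.7 in DT-resistant cells. VC-resistant and DT-resistant were below all sensitive libraries, with log2 -0.51 ± 0.12, adjusted p = 0.00167 and -0.41 ± 0.12, adjusted p = 0.00694, and EB-resistant overlapped them (log2 0.14 ± 0.12, adjusted p = 0.318). EB-resistant was higher than VC-resistant (log2 0.66 ± 0.12, adjusted p = 0.000198) and DT-resistant (log2 0.55 ± 0.12, adjusted p = 0.000877). ATP6V1H, a regulatory subunit, was at 46.5, 44.6 and 43.5 CPM in the sensitive libraries, 50.8, 50.1 and 54.5 in EB-resistant cells, 38.5, 37.6 and 36.8 in VC-resistant cells and 41.1, 47.4 and 45.9 in DT-resistant cells. It rose slightly in EB-resistant cells (log2 0.21 ± 0.075, adjusted p = 0.0275) and fell slightly in VC-resistant cells (log2 -0.25 ± 0.075, adjusted p = 0.00976), and these 2 lines differed by log2 0.46 ± 0.075, adjusted p = 8.73e-05. The rise in EB-resistant cells was lost without sensitive replicate 5 or 6 or EB-resistant replicate 6, with adjusted p from 0.0697 to 0.0891.

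Of the 2 transcription factors, TFEB rose in all 3 lines and TFE3 passed the test in none. TFEB (chr6:41683978-41736259, minus strand) had the lowest level per kilobase of all members in sensitive, and was at 1.92, 2.203 and 1.96 CPM in the sensitive libraries, 4.36, 6.17 and 6.16 in EB-resistant cells, 4.28, 2.71 and 2.69 in VC-resistant cells and 5.68, 5.66 and 4.79 in DT-resistant cells. All resistant libraries were above the sensitive ones, VC-resistant the least. TFEB was 2.74-fold higher in EB-resistant cells (log2 1.45 ± 0.20, adjusted p = 2.05e-05), 2.65-fold in DT-resistant cells (log2 1.41 ± 0.20, adjusted p = 3.14e-05) and 1.58-fold in VC-resistant cells (log2 0.66 ± 0.21, adjusted p = 0.014). The VC-resistant call was lost without its replicate 2, the highest of that group (log2 0.42, adjusted p = 0.0873). TFEB was lower in VC-resistant cells than in EB-resistant cells (log2 0.79 ± 0.20, adjusted p = 0.00289 for EB-resistant minus VC-resistant). It was also lower than in DT-resistant cells (log2 -0.75 ± 0.20, adjusted p = 0.0178), although not without VC-resistant replicate 5 or 6 or DT-resistant replicate 5, with adjusted p from 0.0592 to 0.0982. Between EB-resistant and DT-resistant, TFEB did not differ past the threshold. TFE3 was at 160.4, 153 and 132 CPM in the sensitive libraries, 131, 127 and 113 in EB-resistant cells, 181, 138 and 134 in VC-resistant cells and 162, 136 and 121 in DT-resistant cells. All EB-resistant libraries lay below the sensitive and VC-resistant ones, the former by little, and the other pairs of groups overlapped. The log2 fold changes of TFE3 were -0.26 ± 0.13, adjusted p = 0.0972 in EB-resistant cells, 0.023 ± 0.13, adjusted p = 0.892 in VC-resistant cells and -0.088 ± 0.13, adjusted p = 0.573 in DT-resistant cells. Its EB-resistant value passed as a fall in the fit of these 2 groups alone (adjusted p = 0.0205), with the replicate number as a block (adjusted p = 0.00417) and without VC-resistant replicate 2 (adjusted p = 0.0395). Per kilobase of the deposited gene length, TFE3 stood at 35.3 CPM in sensitive and TFEB at 0.301, and in EB-resistant cells, where the TFEB mean was highest, at 29.4 and 0.827. Of their relatives, MITF rose in VC-resistant cells (log2 0.49 ± 0.094, adjusted p = 0.000395) and DT-resistant (log2 0.49 ± 0.094, adjusted p = 0.000352) and was at 0.18 ± 0.094, adjusted p = 0.121 in EB-resistant cells. TFEC was low, with a mean of 0.0363 CPM in sensitive and 1.67 in EB-resistant cells, the highest group.

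Among the autophagy genes, SQSTM1, the cargo receptor that binds ubiquitin and is itself degraded in autophagy, had the largest rise in EB-resistant cells. SQSTM1 (chr5:179806398-179838078, plus strand) was at 478, 404 and 412 CPM in the sensitive libraries, 1805, 1672 and 1976 in EB-resistant cells, 655, 623 and 573 in VC-resistant cells and 826, 709.5 and 662 in DT-resistant cells. The EB-resistant libraries were far above all others, and the other resistant libraries were above all sensitive ones. It was 4.21-fold higher in EB-resistant cells (log2 2.08 ± 0.10, adjusted p = 2.31e-10), 1.70-fold in DT-resistant cells (log2 0.76 ± 0.10, adjusted p = 6.86e-06) and 1.43-fold in VC-resistant cells (log2 0.52 ± 0.095, adjusted p = 0.0003). EB-resistant exceeded VC-resistant by log2 1.56 ± 0.10, adjusted p = 6.83e-09 and DT-resistant by 1.31 ± 0.10, adjusted p = 3.77e-08. VC-resistant and DT-resistant did not differ past the threshold (log2 -0.25 ± 0.095, adjusted p = 0.0932), but did in the fit that pairs libraries by replicate number (log2 -0.24, adjusted p = 0.0379) and without DT-resistant replicate 6 (adjusted p = 0.0489). Per kilobase, SQSTM1 in EB-resistant cells, at 241 CPM, stood above PSAP (207), whereas in sensitive PSAP (138) and CD63 (119.6) stood above SQSTM1 (57.2).

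GABARAPL1 and MAP1LC3B belong to the same family of small proteins that are attached to the autophagosome membrane, and their transcripts behaved differently. GABARAPL1 (chr12:10212458-10223128, plus strand) was at 42.9, 26.1 and 22.3 CPM in the sensitive libraries, 43.9, 50.6 and 47.0 in EB-resistant cells, 123, 73.2 and 79.8 in VC-resistant cells and 177, 108 and 121 in DT-resistant cells. VC-resistant and DT-resistant were far above sensitive and EB-resistant, and in both lines, as in sensitive, replicate 2 was the highest. It rose 3.01-fold in VC-resistant cells (log2 1.59 ± 0.29, adjusted p = 0.00124) and 4.45-fold in DT-resistant cells (log2 2.15 ± 0.30, adjusted p = 0.000168). In EB-resistant it was at log2 0.63 ± 0.29, adjusted p = 0.0914, and passed without sensitive replicate 2 (log2 0.96, adjusted p = 0.0132). The lower level in EB-resistant cells than in VC-resistant cells (log2 -0.96 ± 0.29, adjusted p = 0.0166) was lost without VC-resistant replicate 2 (adjusted p = 0.065) or EB-resistant replicate 2 (adjusted p = 0.0503). Against DT-resistant, EB-resistant was lower by log2 -1.52 ± 0.29, adjusted p = 0.00143. MAP1LC3B was at 213, 161 and 138 CPM in the sensitive libraries, 134, 141 and 129 in EB-resistant cells, 147, 139.9 and 138 in VC-resistant cells and 140.0, 147 and 156 in DT-resistant cells. The sensitive libraries spread widely, and every resistant group overlapped them. Its fall in EB-resistant cells (log2 -0.34 ± 0.12, adjusted p = 0.0215) was lost without sensitive replicate 2, the highest library (log2 -0.15, adjusted p = 0.119), or EB-resistant replicate 2 or 6 (adjusted p = 0.0643 and 0.0854), and in the fit of these 2 groups alone (adjusted p = 0.0694). In VC-resistant and DT-resistant it was at log2 -0.27 ± 0.12, adjusted p = 0.065 and -0.21 ± 0.12, adjusted p = 0.142, and both passed as falls without sensitive replicate 6 (log2 -0.39 and -0.33, adjusted p = 0.00548 and 0.0123).

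WIPI1, which binds the phosphoinositide on the growing autophagosome membrane, was higher in VC-resistant and DT-resistant. WIPI1 (chr17:68420948-68457513, minus strand) was at 61.5, 43.7 and 32.4 CPM in the sensitive libraries, 29.7, 33.2 and 31.1 in EB-resistant cells, 100.0, 77.3 and 84.3 in VC-resistant cells and 119, 96.0 and 98.0 in DT-resistant cells. The VC-resistant and DT-resistant libraries were above all sensitive ones, and of the EB-resistant libraries 1 was above the lowest sensitive one and 2 were below it. It rose 1.90-fold in VC-resistant cells (log2 0.93 ± 0.19, adjusted p = 0.00144) and 2.28-fold in DT-resistant cells (log2 1.19 ± 0.19, adjusted p = 0.000221). Its fall in EB-resistant cells (log2 -0.55 ± 0.19, adjusted p = 0.0282) was lost without sensitive replicate 2 (log2 -0.28, adjusted p = 0.105), without sensitive replicate 5, and without any one of the EB-resistant replicates, with adjusted p from 0.051 to 0.105. It was also lost with no filter on low counts (adjusted p = 0.056) and in the fit of these 2 groups alone (adjusted p = 0.066). The direct contrasts put EB-resistant below VC-resistant by log2 -1.48 ± 0.19, adjusted p = 4.39e-05 and below DT-resistant by -1.74 ± 0.19, adjusted p = 1.35e-05. They compare the means of resistant lines, although scaling and spread come from the fit to all 12 libraries, the sensitive ones included. UVRAG, a partner of the lipid kinase complex that acts in autophagosome and endosome maturation, was at 37.5, 36.3 and 35.5 CPM in the sensitive libraries, 42.7, 43.4 and 44.8 in EB-resistant cells, 61.8, 55.05 and 56.6 in VC-resistant cells and 70.3, 58.2 and 59.1 in DT-resistant cells. It rose in every line without overlap with sensitive, by log2 0.26 ± 0.083, adjusted p = 0.0144 in EB-resistant cells, 0.66 ± 0.083, adjusted p = 8.65e-06 in VC-resistant cells and 0.78 ± 0.083, adjusted p = 1.43e-06 in DT-resistant cells, and was lower in EB-resistant cells than in the other lines (log2 -0.41 ± 0.082 and -0.52 ± 0.082, adjusted p = 0.000586 and 7.13e-05).

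**Figure D5:**
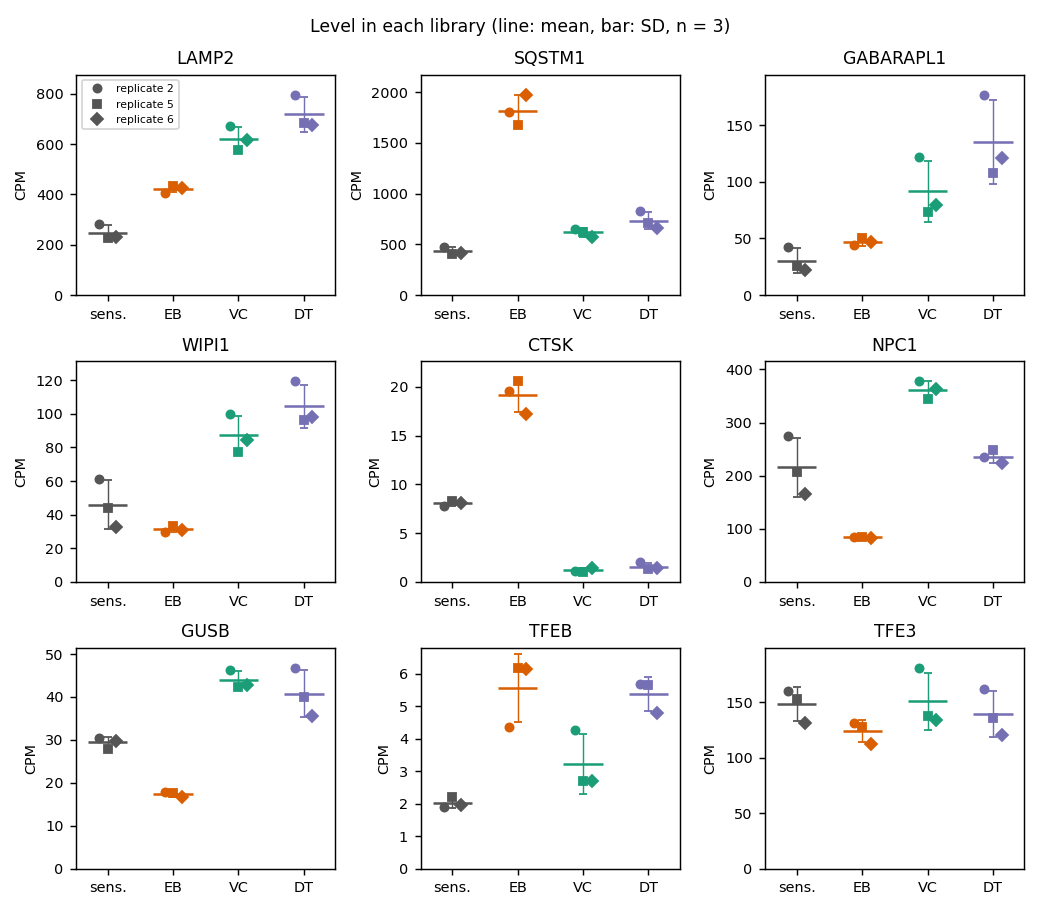
CPM of 9 members in each library of the sensitive (grey), EB-resistant (orange), VC-resistant (green) and DT-resistant (purple) groups, with replicates 2, 5 and 6 as separate symbols, the mean as a line and the SD as a bar (n = 3). SQSTM1 and CTSK are highest in EB-resistant cells, while LAMP2, GABARAPL1, WIPI1 and GUSB are highest in VC-resistant and DT-resistant. TFE3 in EB-resistant cells lies just below sensitive and below VC-resistant, and overlaps in the other pairs of groups.

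The resistant lines were then compared directly, which bears on whether lines selected with different inhibitor pairs carry the same levels of these genes. Between EB-resistant and VC-resistant, 7 of the 35 genes were higher and 13 lower in EB-resistant cells, where 29.6% of all genes tested were higher and 28.8% lower. Between EB-resistant and DT-resistant, 6 were higher and 17 lower, with 28.4% and 28.8% of all genes. VC-resistant and DT-resistant were closer: 3 genes were higher and 6 lower in VC-resistant cells, with 7.08% and 8.71% of all genes, and 26 of 35 passed in neither direction. The 6 lower were SCARB2, CTSZ, NEU1, ATP6V1A, ATP6V1H and TFEB, and this count was 3 without VC-resistant replicate 5 and 2 without VC-resistant replicate 6. In the fit that pairs these libraries by replicate number, 3 were higher and 7 lower, SQSTM1 being the further one, with 1591 and 1923 of all genes. Of the 6, CTSZ was lost without VC-resistant replicate 6 (adjusted p = 0.0654), and NEU1 without VC-resistant replicate 5 or 6 or DT-resistant replicate 2 (adjusted p from 0.0749 to 0.106). ATP6V1H was lost without sensitive replicate 5, VC-resistant replicate 5 or 6 or DT-resistant replicate 5 or 6 (adjusted p from 0.0579 to 0.132). Of the calls between EB-resistant and the others not described above, PSAP against DT-resistant was lost without any one of the EB-resistant replicates or DT-resistant replicate 2 (adjusted p from 0.0701 to 0.144). ATP6V1H against DT-resistant was lost without EB-resistant replicate 6 or DT-resistant replicate 2 (adjusted p = 0.0976 and 0.137), and CTSZ against VC-resistant when replicate 5 of either line or replicate 6 of VC-resistant was left out (adjusted p from 0.0819 to 0.155). In these data 5 of the 35 genes (14.3%, against 9.35% of all genes tested) rose in one line and fell in another with the direct contrast passing too: NPC1, CTSK, GUSB, ATP6V1H and WIPI1. Without sensitive replicate 5 or EB-resistant replicate 6 the count was 3 (8.57%, against 6.64% and 7.69% of all genes), as ATP6V1H and WIPI1 were lost. CTSK and ATP6V1H rose in EB-resistant cells, and NPC1, GUSB and WIPI1 fell there.

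Genes of the same pathways outside the 35 were counted in the same fit, from lists drawn up by function. Their counts stand beside the 27.4% to 29.8% of all genes that passed in a direction in these comparisons. Of 38 other lysosomal hydrolases and activators tested, 15 rose and 4 fell in EB-resistant cells, 21 rose and 8 fell in VC-resistant cells, and 25 rose and 6 fell in DT-resistant cells (39.5%, 55.3% and 65.8% rising), with medians of log2 0.11, 0.36 and 0.38. PPT1, which removes palmitate from proteins, rose in all 3 (log2 0.80, 0.83 and 0.91, adjusted p of 1.77e-07 or less). GALC, the galactosylceramidase, rose most in DT-resistant cells (log2 1.45 ± 0.076, adjusted p = 1.17e-09), and GM2A, the activator that works with hexosaminidase A, rose by log2 1.17 ± 0.093 and 1.17 ± 0.093 in VC-resistant and DT-resistant (adjusted p of 1.15e-07 or less). The cysteine protease CTSH fell in all 3, from a mean of 5.60 CPM in sensitive to 2.57 in EB-resistant cells, 0.393 in VC-resistant cells and 0.153 in DT-resistant cells. CTSS, a protease of antigen presentation, and FUCA1, the fucosidase, fell in EB-resistant cells (log2 -1.51 ± 0.10 and -1.42 ± 0.12, adjusted p = 1.11e-08 and 1.06e-07) and rose in DT-resistant cells (log2 0.51 ± 0.10 and 0.89 ± 0.12, adjusted p = 0.000404 and 1.03e-05). ACP5, the tartrate-resistant phosphatase that like CTSK is known from bone-resorbing cells, averaged 1.07 CPM in sensitive and 10.4 in EB-resistant cells (log2 3.28 ± 0.23, adjusted p = 1.19e-08), and 0.323 and 0.0746 in VC-resistant and DT-resistant.

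Of the 14 other V-ATPase genes, 7 rose and 3 fell in EB-resistant cells, 7 rose and 4 fell in VC-resistant cells, and 8 rose and 3 fell in DT-resistant cells. ATP6V0A1, a membrane subunit, rose by log2 0.38 ± 0.10, 0.47 ± 0.10 and 0.69 ± 0.10, with adjusted p of 0.00413 or less. ATP6V0E2, another membrane subunit, fell in all 3 lines (log2 -0.43, -0.30 and -0.60), with adjusted p of 0.0175 or less. Other lysosomal membrane proteins (22 tested) were mixed, with 10 higher and 5 lower in EB-resistant cells, and 7 higher and 8 lower in each of the other lines. SLC17A5, the sialic acid exporter, rose most in DT-resistant cells (log2 1.73 ± 0.14, adjusted p = 1.66e-07), and the peptide transporter ABCB9 fell in every line (log2 -1.25, -1.31 and -1.72, adjusted p of 2.82e-07 or less). Of 14 genes that sort enzymes to the lysosome, 6, 5 and 6 rose and 3, 3 and 2 fell in the EB-, VC- and DT-resistant lines. The sorting receptor SORT1 rose (log2 0.43, 0.90 and 0.72, adjusted p of 4.71e-05 or less), and the mannose 6-phosphate receptor M6PR fell in EB-resistant cells (log2 -0.68 ± 0.061, adjusted p = 1.98e-07).

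The autophagy machinery outside the 5 members was mixed between lines, and in VC-resistant cells more genes of initiation and elongation fell than rose. Of these 31 genes, 13 rose and 8 fell in EB-resistant cells (41.9% and 25.8%). In VC-resistant cells 5 rose and 16 fell (16.1% and 51.6%), where 27.6% of all genes tested rose and 27.4% fell. In DT-resistant cells 8 rose and 9 fell (25.8% and 29%). The medians were log2 0.026, -0.26 and -0.032 in the EB-, VC- and DT-resistant lines. PIK3C3, the lipid kinase that starts the autophagosome, fell in every line (log2 -0.85 ± 0.087, -0.95 ± 0.088 and -0.78 ± 0.087, adjusted p of 2.31e-06 or less). ULK2, an initiating kinase, fell as well (log2 -1.93, -1.19 and -0.84, adjusted p of 0.00237 or less). ATG13, of the same kinase complex, and GABARAP, a relative of GABARAPL1, rose in EB-resistant cells (log2 0.56 ± 0.079, adjusted p = 2.05e-05, and 0.70 ± 0.10, adjusted p = 3.92e-05). Of 13 autophagy receptors, 4 rose in each line and 3, 2 and 4 fell in the EB-, VC- and DT-resistant lines. OPTN rose in all 3, most in DT-resistant cells (log2 1.03 ± 0.10, adjusted p = 5.06e-07), and the mitophagy receptor BNIP3 fell in all 3, most in EB-resistant cells (log2 -0.92 ± 0.071, adjusted p = 3.99e-08).

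Of 15 genes of fusion with the lysosome, 6, 5 and 5 rose (40%, 33.3% and 33.3%) and 3, 3 and 4 fell (20%, 20% and 26.7%). RAB7A, the small GTPase of late endosomes and lysosomes, rose from a mean of 304 CPM in sensitive to 739 in EB-resistant cells (log2 1.28 ± 0.062, adjusted p = 2.98e-10), against 323 in VC-resistant cells and 345 in DT-resistant cells. EPG5, a tether of autophagosomes, fell in all 3 lines, most in EB-resistant cells (log2 -1.63 ± 0.083, adjusted p = 4.9e-10). Of 24 genes of mTORC1 control at the lysosome, 11, 6 and 7 rose and 5 fell in each line. TSC2, an inhibitor of mTORC1, rose most in EB-resistant cells (log2 0.91 ± 0.077, adjusted p = 1.16e-07), and FNIP1, a partner of folliculin, rose in all 3 (log2 0.62, 0.92 and 1.03, adjusted p of 4.4e-05 or less). RRAGD, a GTPase of TFEB control and a known TFEB target, fell in EB-resistant cells (log2 -1.68 ± 0.31, adjusted p = 0.000256) and DT-resistant (log2 -0.91 ± 0.29, adjusted p = 0.0149).

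Library totals ran from 40491309 to 54495132 counts, and the share of mitochondrially encoded genes from 1.44% to 3.29%. No 2 libraries of a group were alike within counting noise. Of the melanocytic markers in the table, MITF and GPR143 were expressed, and PMEL, TYRP1, DCT and TRPM1 averaged below 1 CPM in every group. Macrophages are rich in lysosomes, and the summed level of 5 macrophage markers was at most 1.55 CPM in any library. That sum ran from 0.827 to 1.15 CPM in sensitive and from 1.42 to 1.55 in EB-resistant cells. In VC-resistant cells it ran from 0.394 to 0.506, and in DT-resistant cells from 0.415 to 0.771. The fibroblast markers given beside CTSK rose in 6 of 6 tested genes in EB-resistant cells, 4 in VC-resistant cells, where 1 fell, and 5 in DT-resistant cells. The summed level of 4 epithelial markers, mostly KRT18, ran from 269.6 to 348 CPM in sensitive, from 182 to 207 in EB-resistant cells, from 79.8 to 96.9 in VC-resistant cells and from 63.1 to 68.0 in DT-resistant cells, and that of 2 T cell markers was at most 4.33 CPM. The part of these shifts in the other members was not tested. All libraries came from WM1366 and its daughter lines. In such bulk libraries, a change in some of the cells and a change in all of them cannot be told apart. Several members overlap another gene: NPC1 with RMC1, MCOLN1 with PNPLA6 on the same strand, CTSA with PLTP, CTSZ with NELFCD, GLA with RPL36A, NPC2 with ISCA2, SQSTM1 with MGAT4B, MAP1LC3B with FBXO31, WIPI1 with ARSG, and LIPA with IFIT1, IFIT2 and IFIT3. The strand setting of the counting is not given in the sources used here, and without strand the reads of partners on opposite strands cannot be told apart. For MCOLN1 and PNPLA6, on the same strand, that setting would not separate them either. The IFIT genes held 26.0%, 37.8% and 63.0% as many counts as LIPA over all libraries, and PNPLA6 held 543% as many as MCOLN1.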

How the data were processed

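Polyadenylated RNA of 12 libraries, 3 in each of 4 groups, was sequenced with a strand-specific kit in paired ends, per the labels' protocols. Per the submitters' processing notes, bcl2fastq 2.20.0 made the read files, STAR 2.7.10b aligned them (build hg38) and featureCounts 2.0.1 counted them. Not given in the sources used here are its strand setting, the annotation release and the doses of the drugs. The authors deposited raw counts per gene, which were used for every test. They also deposited a normalised signal, per the submitters' notes from DESeq2 1.38.3, and each of its values equals the count divided by a size factor within 0.05. It was not tested further. All columns matched a library, and 0 were left over.

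After filterByExpr and TMM scaling, edgeR 4.0.16 (R 4.3.3, limma 3.58.1) fitted the 4 group means to all 12 libraries by robust quasi-likelihood, leaving 8 residual degrees of freedom. All 6 pairs of groups were tested, with Benjamini-Hochberg adjustment over 17114 genes and a threshold of 0.05. Standard errors were derived from the log2 fold change and its F statistic. CPM use TMM-scaled totals, and levels per kilobase use the deposited length, whose making is not described. P-values measure the spread between 3 experiments on 1 line per group. The script was tested on simulated data. Values in every library are given for the 3 highest and 3 lowest called members of each comparison, those called alike in all 3 lines with at least 1.5-fold in one, those called in opposite directions, and TFEB, TFE3, LAMP1, LAMP2, SQSTM1, MAP1LC3B and GABARAPL1. From the other pathway lists, genes with the smallest adjusted p are named, up to 3 per direction. A gene that this rule names is not reported here. ATP6V0A1 and ATP6V0E2 were named after their values were seen. The members, lists and rules were chosen with earlier results of these data known. Listed genes not in the table are not analysed here.

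Same-numbered libraries of VC-resistant and DT-resistant deviated together (correlations 0.337, 0.151 and 0.195, each above the limit of 0.1). They were paired by number only in the alternative with a replicate block, which spans all 12 libraries. The main values for VC-resistant against DT-resistant are unpaired. No other pair of groups passed that limit in all 3 numbers. Promoter windows are from RefSeq (GRCh38.p14). Alternatives were DESeq2 1.42.0 and its size factors, no filter, fitting only the 2 groups compared, a replicate block, and leaving out each library. Figures were drawn with matplotlib in Python.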

Additional observations from a re-analysis of the deposited data

Results flagged for a closer look

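These values were picked out because a member changed in opposite directions against sensitive in 2 resistant lines and the direct contrast of the lines passed an adjusted p of 0.05 in edgeR's quasi-likelihood test. CTSK differed by log2 4.02 between EB-resistant and VC-resistant and by 3.61 between EB-resistant and DT-resistant. NPC1 differed by log2 -2.11 between EB-resistant and VC-resistant. WIPI1 differed by log2 -1.48 and -1.74, and GUSB by -1.34 and -1.23, in EB-resistant against VC-resistant and DT-resistant. ATP6V1H differed by log2 0.46 between EB-resistant and VC-resistant. Each group has 3 libraries, too few to test a single library as an outlier.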

How the results depend on the processing

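Of 210 values of a member in a comparison, 131 passed the threshold, and 112 of these passed under every alternative listed in the methods. No value that passed changed sign (0 of 210 reversed). The count of members lower in VC-resistant cells than in DT-resistant cells was 6, and ran from 2 to 8 when 1 library was left out, with 3 without VC-resistant replicate 5 and 2 without VC-resistant replicate 6. The count of members called in opposite directions in 2 lines, followed over the alternatives after seeing the data, was 5 and ran from 3 to 5 when 1 library was left out, with 3 without sensitive replicate 5 or EB-resistant replicate 6. The other counts of members higher or lower stayed within 1.5 times under every alternative. With the replicate block, members rising and falling in EB-resistant cells numbered 18 and 7, and those lower in EB-resistant cells than in VC-resistant and DT-resistant 14 and 18. In that block SCARB2, NEU1, GABARAPL1 and TFE3 also passed in EB-resistant against sensitive, TFE3 in EB-resistant against VC-resistant (log2 -0.28, adjusted p = 0.00263) and DT-resistant (log2 -0.16, adjusted p = 0.0488), and SQSTM1 between VC-resistant and DT-resistant. It ended no call. With no filter on low counts, WIPI1 in EB-resistant against sensitive (adjusted p = 0.056) and ATP6V1H in EB-resistant against DT-resistant (0.0599) were lost. Fitting only the 2 groups compared ended WIPI1 (0.066) and MAP1LC3B (0.0694) in EB-resistant cells, CTSB in DT-resistant cells (0.0735), and NEU1 (0.0557), NPC2 (0.0763) and ATP6V1H (0.0978) between VC-resistant and DT-resistant, and NEU1 (0.0173) and TFE3 (0.0205) then passed in EB-resistant against sensitive. DESeq2's size factors and its own test ended ATP6V1A between EB-resistant and VC-resistant (0.0551 and 0.0752), and its size factors let SCARB2 pass in EB-resistant cells (0.0444). The share of counts taken by the 35 genes without mitochondrial genes and the 20 most abundant genes was 0.731% in EB-resistant cells, 0.631% in VC-resistant cells and 0.675% in DT-resistant cells, and 0.460% in sensitive. Without SQSTM1, which was chosen after seeing the data, it was 0.377% in sensitive, 0.478% in EB-resistant cells, 0.507% in VC-resistant cells and 0.537% in DT-resistant cells. For lost calls the cause was not tested.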
